A study of Mus musculus with 20 samples.

Results

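The genes described here bind, make or respond to retinoic acid: the cellular binding proteins Crabp1 and Crabp2, the synthetic enzyme Aldh1a2, and the nuclear receptors Rara, Rarb, Rxra and Rxrg. They were taken by symbol and make up 7 of the 37994 genes in a developmental series of the mouse habenula and 7 of the 36104 genes in a second set at E18. The set was chosen by the CPM and the share of positive wells of Crabp1 by stage in these data, which peak at the start of the series (CPM is the count of a gene scaled to a common total per plate). For that reason differences of Crabp1 between stages, and every difference from E11, are given as a description with no test.

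Single cells were sequenced with CEL-seq2 on 20 plates of 384 wells, and the plate is the replicate throughout. The developmental series holds 15 plates of habenula from the Brn3a-tauLacZ line, a reporter line named after Brn3a (now Pou4f1). Stages were embryonic days E11, E12, E13, E15 and E18, postnatal days P4 and P7, and the adult, with 1 plate at E12 and 2 at every other stage. The second set holds 5 plates of E18 habenula from C57BL/6 mice: 2 of the left side, 2 of the right and 1 of both sides, whose title reads E1 while its other labels read E18. The sources used here do not give the adult age, the reporter's copy number, the sex and number of mice or any sorting gate. Nothing says that plates of a stage came from separate animals, so p-values measure the spread between plates, which may be technical.

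Retinoic acid is made from vitamin A in successive oxidation steps, the last of which is catalysed by enzymes such as Aldh1a2. In the cell it is held by Crabp1 and Crabp2: Crabp1 is linked to its breakdown and buffering, and Crabp2 to its delivery to receptors in the nucleus. There it binds Rar proteins, which sit on DNA as pairs with Rxr proteins and turn genes on when ligand is bound. In the embryonic brain the meninges, which are rich in fibroblasts, are a known source of retinoic acid, and the hormone is known to act on the patterning and differentiation of neurons.

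Receptor pairs bind DNA at short elements arranged as direct repeats, and a repeat spaced by 5 bases is the classic retinoic acid response element. The 6-base element AGGTCA, its variant AGTTCA, the variant GGGTCA, and the variant with both changes, GGTTCA, were searched on both strands as repeats spaced by 0, 1, 2 or 5 bases in the 250 bases before each transcription start (RefSeq sequences, GRCm38.p6); repeats of different spacing were counted separately and may overlap. The repeat spaced by 5 was present in 29 of 32851 windows (0.0883%), and the repeats spaced by 0, 1 and 2 in 61 (0.186%), 54 (0.164%) and 57 (0.174%). Of the 7 genes, 6 had windows, 11 in all, and 1 window, that of Rarb, held the repeat spaced by 5. Among 31 windows of 18 further retinoic acid genes, 1 window held it, that of Cyp26a1, which encodes an enzyme that breaks retinoic acid down. Both are shown because they are the windows of listed genes with the repeat. Capitals mark the elements, and each stretch is printed 5′ to 3′ on the minus strand, which is the strand of Rarb and the strand opposite to Cyp26a1.
Rarb, chr14:16575507-16575535: gggaagGGTTCAccgaaAGTTCActcgca
Cyp26a1, chr19:37697770-37697798: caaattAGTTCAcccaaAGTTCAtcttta
The last base of the Rarb repeat lies 37 bases before the transcript start that the RefSeq table gives for Rarb, a start inside the longer GENCODE span of the gene given below. A match in these letters is a description of the sequence and not of binding.

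Wells were kept with at least 1000 counts, 500 genes and at most 20% mitochondrial counts, which left 3729 of 5756 wells in the series and 1082 of 1920 in the E18 set. Kept wells per plate ranged from 54 to 345 and counts per plate from 7.587e+05 to 7.7604e+06. Several plates stood apart. Adult plate 1 kept 56 wells. On E18 plate 1 of the series 195 of 267 wells were progenitor-like and 28.1% held a Pou4f1 unique molecular identifier (UMI, a tag that marks 1 captured transcript), against 85.5% on E18 plate 2, where 10 of 110 wells were fibroblast-like. Wells with Pou4f1 made up 88.1% to 92.2% at E11, P4 and P7, 37.5% and 52.6% on the adult plates, and 71.2% and 51.1% at E13. E13 plate 2 held 4048 CPM of choroid plexus markers and 1715 CPM of mural markers, the highest of the 20 plates for both lists. In the E18 set the summed level of erythroid markers was 17220 and 19048 CPM on the left plates against 266 and 3410 on the right. Plates carry the same set of well barcodes by design.

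Crabp1 (ENSMUSG00000032291; GRCm38, chr9:54764748-54773110, plus strand) was the most abundant of the 7 genes at E11 and lost nearly all of its level within the next stages. It stood at 4509 CPM on E11 plate 1 and 3118 CPM on E11 plate 2, a mean of 3814 ± 984 CPM (SD, n = 2), and at 306 CPM on the E12 plate. The E13 plates held 11.9 and 4.78 CPM. From E13 to the adult no plate reached 20 CPM. E15 plates held 16.8 and 2.08 CPM, E18 plates 5.99 and 3.01, P4 plates 3.90 and 1.38, P7 plates 2.58 and 7.21, and adult plates 2.64 and 3.38. In order of level, E11 lay above E12 and E12 above all later stages, while each later stage overlapped its neighbour in that order. The mean at E11 was 12.5 times that at E12 and 457 times that at E13. The cells named on these plates differed too. Wells of the neuron-like clusters made up 85.1% and 89.6% at E11, 40.9% at E12 and 7.84% and 0.730% at E13. A cluster took that name from markers at 2-fold or more over all other wells, so neurons can lie in clusters without it. Unnamed wells made up 48.1% at E12 and 58.2% and 0.730% at E13. Summed neuron markers stood at 17745 and 17833 CPM at E11, 16066 at E12 and 12363 and 6651 at E13. The part of cell makeup in the levels was not tested. Wells with a Pou4f1 UMI at E13 held 12.3 and 4.58 CPM of Crabp1. A plate's level is a sum over its wells, so fewer cells with the transcript and less transcript per cell are looked at separately below.

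**Figure D1:**
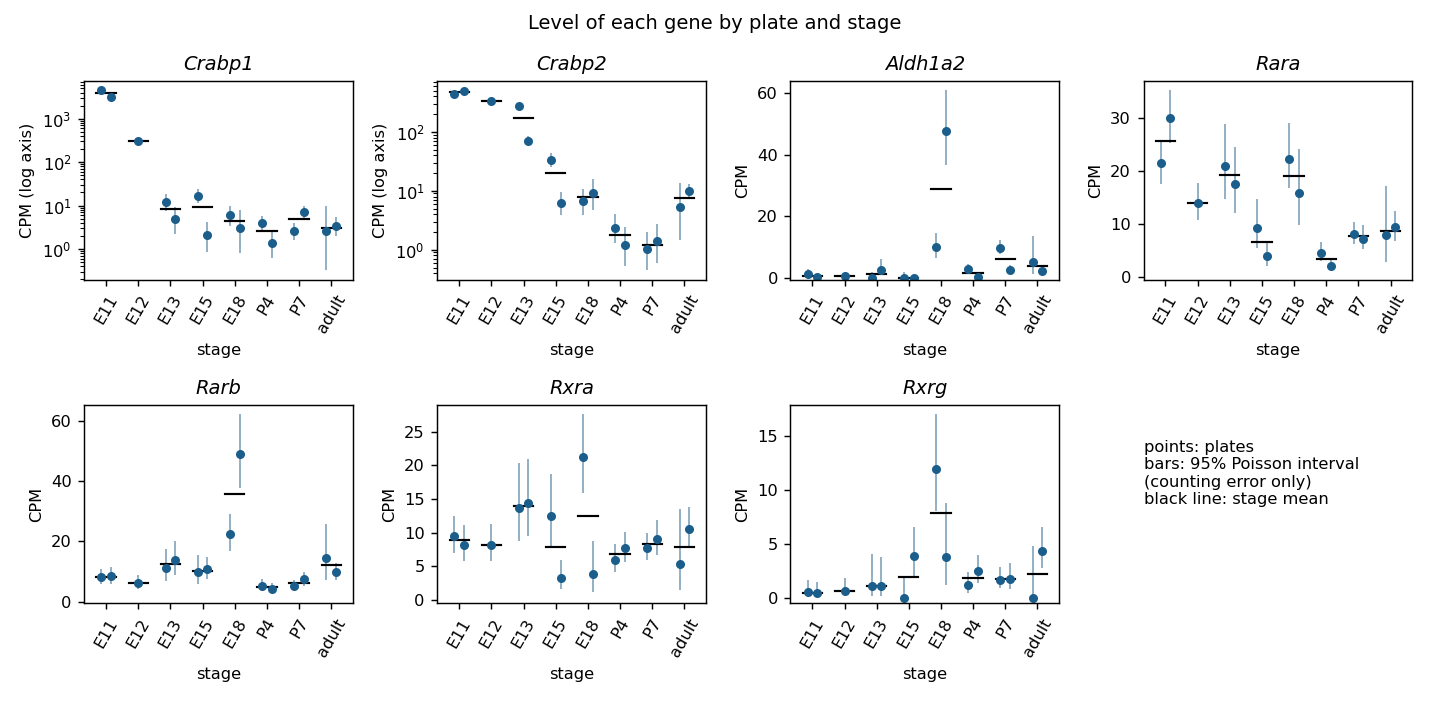
Level of each of the 7 genes by plate (points, CPM of summed kept wells) against stage, with 95% Poisson intervals that cover counting error only and a line at the stage mean; the axes of Crabp1 and Crabp2 are logarithmic. Crabp1 drops from 4509 and 3118 CPM at E11 to 11.9 and 4.78 CPM at E13, Crabp2 falls later, and Aldh1a2, Rarb and Rxrg have their highest plates at E18.

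The change in Crabp1 was seen in the number of wells and in the level per well. At E11 99.7% and 98.8% of wells held a UMI of Crabp1, at E12 64.6%, and at E13 10.5% and 2.92%. With wells thinned to 2000 UMIs, and those with fewer left out (4 and 6 wells at E11, 11 at E12 and 18 and 8 at E13), the shares were 93.4% and 85.3%, then 23.9%, then 2.22% and 0.775%. Thinning lowered each of these shares, and the order of the stages was the same with and without it. The median well, over all kept wells with or without a UMI, held 2301 and 1670 CPM on the E11 plates and 68.4 CPM at E12. Among wells with a UMI of Crabp1 the median was 34 and 17 UMIs at E11, 2 at E12 and 1 and 2 at E13, at full depth. Spread among wells was wide at E11, with 5th and 95th percentiles of 423 and 15415 CPM on plate 1. One E12 well with 252 UMIs carried 17.5% of that plate's Crabp1, which was 253 CPM without it.

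**Figure D2:**
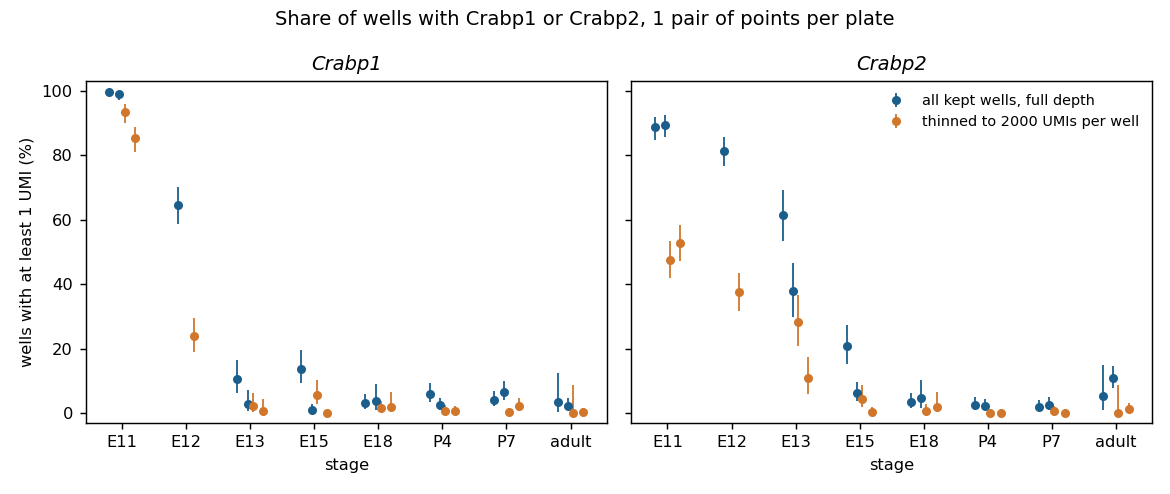
Share of kept wells with at least 1 UMI (percent) of Crabp1 (left) and Crabp2 (right) by stage, 1 point per plate with 95% Clopper-Pearson intervals, at full depth (blue) and after thinning to 2000 UMIs (orange), which leaves out wells with fewer. Crabp1 goes from 99.7% and 98.8% of wells at E11 to 64.6% at E12, while Crabp2 is still in 81.4% of wells at E12 and in 61.4% and 38.0% at E13.

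Clusters made without the 7 genes differed in Crabp1. Cluster 0, neuron-like and led by the transcription factor gene Onecut3, held 5173 and 3048 CPM at E11 and 524 CPM at E12. Cluster 2, neuron-like and led by Tfap2b, held 4520 and 3718 CPM at E11 and 549 CPM at E12. These clusters together made up most E11 wells and did not keep the same order on both E11 plates. Progenitor-like cells of cluster 1 stood lower, at 754 and 607 CPM, then 65.3 CPM at E12, and 0 UMIs on both E13 plates (15 and 27 wells). That cluster passed 10 progenitor markers but was led by Ttr and passed 3 choroid plexus markers too, so it may hold choroid plexus cells. Intermediate progenitor-like cells of cluster 6 held 875 and 400 CPM at E11. An unnamed cluster led by Pou2f2 (cluster 5) made up 139 of the 291 E12 wells and held 87.9 CPM of Crabp1 beside 486 CPM of Crabp2. Its 85 wells on E13 plate 1 held 14.6 CPM of Crabp1 and 399 CPM of Crabp2. No test is given for clusters.

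Wells of other cell types held Crabp1 at E11 too, and whether this was free RNA or their own was not tested. The 9 microglia-, fibroblast-, mural- and endothelial-like wells of E11 plate 1 all held Crabp1, at 1093 CPM and a median of 7837 counts per well, against a plate median of 15685. Pou4f1 was present in 4 of these 9 wells, at 111 CPM against 838 CPM on the plate. The 2 such wells of plate 2 held 445 CPM. Intermediate progenitor-like cells lay below the level in these wells on both plates (875 and 400 CPM). Progenitor-like cells lay below it on plate 1 (754 CPM) and above it on plate 2 (607 CPM, against a level from 3 UMIs), so Crabp1 in either class is not told apart from that in other cell types. The wells of other cell types held 131 CPM of Crabp2 on plate 1. Wells with a Pou4f1 UMI, the habenula marker, held 4650 and 3221 CPM of Crabp1 on the E11 plates against 1458 and 1496 CPM in wells without one, whose median depth was lower (7702 and 5867 counts against 16290 and 14361).

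**Figure D3:**
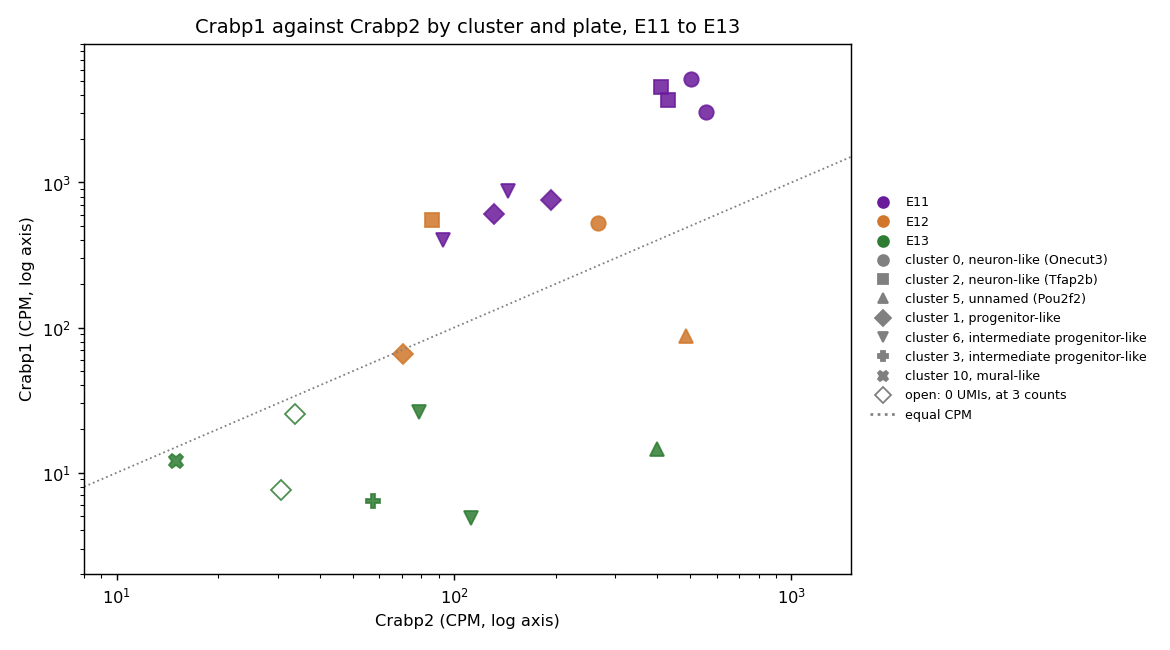
Crabp1 (vertical, CPM, log axis) against Crabp2 (horizontal, CPM, log axis) for each cluster on each plate from E11 to E13; colours are stages, shapes are clusters, open symbols had 0 UMIs of Crabp1 and are drawn at 3 counts, and the dotted line marks equal CPM. The E11 points lie above the line and the E13 points with Crabp1 UMIs below it, with cluster 5 at 87.9 CPM of Crabp1 and 486 CPM of Crabp2 at E12.

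Crabp2 (ENSMUSG00000004885; chr3:87948666-87953376, plus strand) was high at the same early stages and fell over a longer time. E11 plates held 441 and 491 CPM, the E12 plate 332 CPM, E13 plates 270 and 70.7 CPM, and E15 plates 33.7 and 6.24 CPM. The 2 plates of E13 and the 2 of E15 differed several-fold from each other. E13 plate 1 held 85 wells of cluster 5, and plate 2 mostly intermediate progenitor-like wells, which held 112 CPM. E18 plates held 6.79 and 9.04 CPM, P4 plates 2.37 and 1.23, P7 plates 1.03 and 1.41, and adult plates 5.27 and 9.74. From E11 to E13 the mean of Crabp2 went down 2.73-fold, beside the 457-fold of Crabp1. As a result the balance between the binding proteins turned over: Crabp1 stood at 10.2 and 6.35 times Crabp2 on the E11 plates, 0.921 times at E12, and 0.0442 and 0.0676 times at E13. Of the summed CPM of the 7 genes, Crabp1 made up 90.3% and 85.3% at E11, 45.8% at E12 and 3.62% and 3.83% at E13. Crabp2 made up 82.1% and 56.6% at E13. CEL-seq2 counts transcript ends, so these levels are not divided by transcript length.

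Aldh1a2 (ENSMUSG00000013584; chr9:71215789-71296243, plus strand) was carried by a few fibroblast-like cells. Of its 230 UMIs in the series, 191 (83.0%) lay in the 41 fibroblast-like wells, at 468 CPM, a cluster led by Col1a1, Col3a1 and Col1a2. It was highest on E18 plate 2, at 47.5 CPM, where 5 fibroblast-like wells held 56 of 63 UMIs. On P7 plate 1, at 9.81 CPM, fibroblast-like wells held 72 of 76. E18 plate 1 held 9.98 CPM and P7 plate 2 2.64 CPM, all of it 15 UMIs in 1 well. All other plates held 5.27 CPM or less, and E13 plate 1 and both E15 plates had 0 UMIs, where 3 counts would be 1.70, 1.63 and 0.891 CPM. The summed level of 8 fibroblast markers, all detected at every stage, was highest on the same plates as Aldh1a2 at E18 and P7 (1673 CPM on E18 plate 2 and 992 on P7 plate 1) and low at E15 (24.98 and 2.38 CPM) and on E11 plate 2 (5.52 CPM), where Aldh1a2 had at most 1 UMI. It did not go with Aldh1a2 on every plate: E13 plate 2 held 461 CPM of these markers beside 2.66 CPM of Aldh1a2, E18 plate 1 409 beside 9.98, adult plate 1 425 beside 5.27 and the E12 plate 232 beside 0.632. The part of these cells in the plate levels was not tested. In the C57BL/6 set, which had no fibroblast-like cluster, Aldh1a2 had 23 UMIs on 5 plates and 0 on left plate 2. An antisense gene, Gm48124, shares 412 bases with Aldh1a2 and held at most 1 count per plate.

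The 4 receptors were far lower than the binding proteins at E11 and did not share their course. Their sum was 39.6 and 47.0 CPM on the E11 plates, 28.9 on the E12 plate, 47.1 and 46.7 on E13 plates and 31.5 and 21.7 on E15 plates. E18 plates held 77.8 and 72.4 CPM, P4 plates 17.0 and 16.6, P7 plates 22.8 and 25.3, and adult plates 27.7 and 34.0. Within the series the E18 plates were the highest and the P4 plates the lowest. The C57BL/6 plates of the same age held less, 36.1 and 39.5 CPM on the left, 31.5 and 39.5 on the right and 44.0 for both sides, which is within or below the range of E11 and E13. Both E18 plates differ in cell makeup from the rest, as given above, so stage and makeup cannot be told apart in that sum.

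Rara (ENSMUSG00000037992; chr11:98927818-98974942, plus strand), which encodes the broadly expressed retinoic acid receptor alpha, held 21.4 and 30.03 CPM on E11 plates, 13.9 on the E12 plate, 21.0 and 17.5 on E13 plates and 9.23 and 3.86 on E15 plates. E18 plates held 22.3 and 15.8 CPM, P4 plates 4.58 and 2.15, P7 plates 8.12 and 7.21, and adult plates 7.91 and 9.34. E15 thus lay with the postnatal plates. Within E11 it was higher in the Tfap2b-led cluster 2 (33.4 CPM, 95% interval 24.99 to 43.6, and 45.8 CPM, 36.2 to 57.05) than in the Onecut3-led cluster 0 (14.8 CPM, 10.8 to 19.8, and 20.9 CPM, 15.9 to 26.9). That order held on both E11 plates and at E12 (26.1 against 5.51 CPM), with intervals that cover counting error only.

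Rarb (ENSMUSG00000017491; chr14:16430839-16819156, minus strand) encodes retinoic acid receptor beta, itself a known target of retinoic acid. E11 plates held 8.11 and 8.38 CPM, the E12 plate 6.11, E13 plates 11.4 and 13.8, and E15 plates 9.77 and 10.7. E18 plates held 22.3 and 49.0 CPM, P4 plates 5.26 and 4.29, P7 plates 5.28 and 7.39, and adult plates 14.5 and 9.74. E18 lay above all other stages. On E18 plate 2 the 10 fibroblast-like wells held 26 of its 65 UMIs, at 339 CPM, and the 94 wells of an unnamed cluster led by Nrxn3 held 31.5 CPM. On E18 plate 1 progenitor-like cells of cluster 12 held 25.4 CPM. Rarb was present without fibroblast-like clusters in the C57BL/6 set at the same age, at 18.1 and 22.2 CPM on the left plates, 13.0 and 22.5 on the right and 23.4 on the plate of both sides. One well held 58.5% of the UMIs on left plate 2, which was 9.55 CPM without it. Unspliced reads made up 63.6% to 96.2% of Rarb UMIs on the 20 plates, and the gene spans 388318 bases. Its 3′ end shares 4624 bases with Top2b on the other strand (112 to 537 CPM on the series plates); the sources used here do not say whether counting used strand, so reads of these genes there cannot be told apart.

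Rxra (ENSMUSG00000015846; chr2:27676440-27762957, plus strand) encodes a common partner of the Rar proteins. E11 plates held 9.47 and 8.17 CPM, the E12 plate 8.21, E13 plates 13.6 and 14.3, P4 plates 5.94 and 7.67, P7 plates 7.73 and 8.97, and adult plates 5.27 and 10.5. The plates of E15 (12.5 and 3.27 CPM) and of E18 (21.1 and 3.77 CPM) differed several-fold within the stage, and the lowest and highest of the 15 series plates are among them. Among clusters, microglia-like cells held 44.0 CPM, progenitor-like cells 33.7 CPM in cluster 1 and 20.8 CPM in cluster 12, and endothelial-like cells 25.7 CPM. A cluster of 8 astrocyte-like wells, at 33.7 CPM, rests on 2 UMIs. Within E15 and within E18 the plate with more Rxra had more progenitor-like wells: 195 of 267 on E18 plate 1 against 2 of 110 on E18 plate 2, and 13 of 188 on E15 plate 1 against 5 of 302 on E15 plate 2. The part of these cells in the plate levels was not tested. In the C57BL/6 set progenitor-like cells held 39.5 CPM and 24.7% of Rxra UMIs.

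Rxrg (ENSMUSG00000015843; chr1:167598384-167639623, plus strand), the Rxr gene with the narrowest expression in adult tissues, stayed at or under 4.37 CPM on every series plate except E18 plate 1, at 12.0 CPM. Its highest level among clusters was in astrocyte-like cells. The 61 wells of cluster 16, led by Fabp7 and Ednrb, held 56.6 CPM (95% interval 41.0 to 76.3) and 33.6% of all Rxrg UMIs in the series. Most UMIs lay elsewhere, 13.3% of them in unnamed cluster 7 and 7.81% in progenitor-like cluster 12. On E18 plate 1 the 30 wells of cluster 16 held 48.6 CPM, and 38 of the 267 wells of that plate were astrocyte-like. In the C57BL/6 set an unnamed cluster led by Apoe, Fabp7 and Slc1a3 held 46.6 CPM and 44.9% of the UMIs. Its 10 wells on left plate 1 held 147 CPM and its 17 wells on right plate 1 41.6 CPM. Lateral habenula-like cluster 12 of the C57BL/6 set held 14.4% of the UMIs and progenitor-like cluster 8 of that set 12.7%. Progenitor markers passed in cluster 16 as often as astrocyte markers, 7 of each list.

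**Figure D4:**
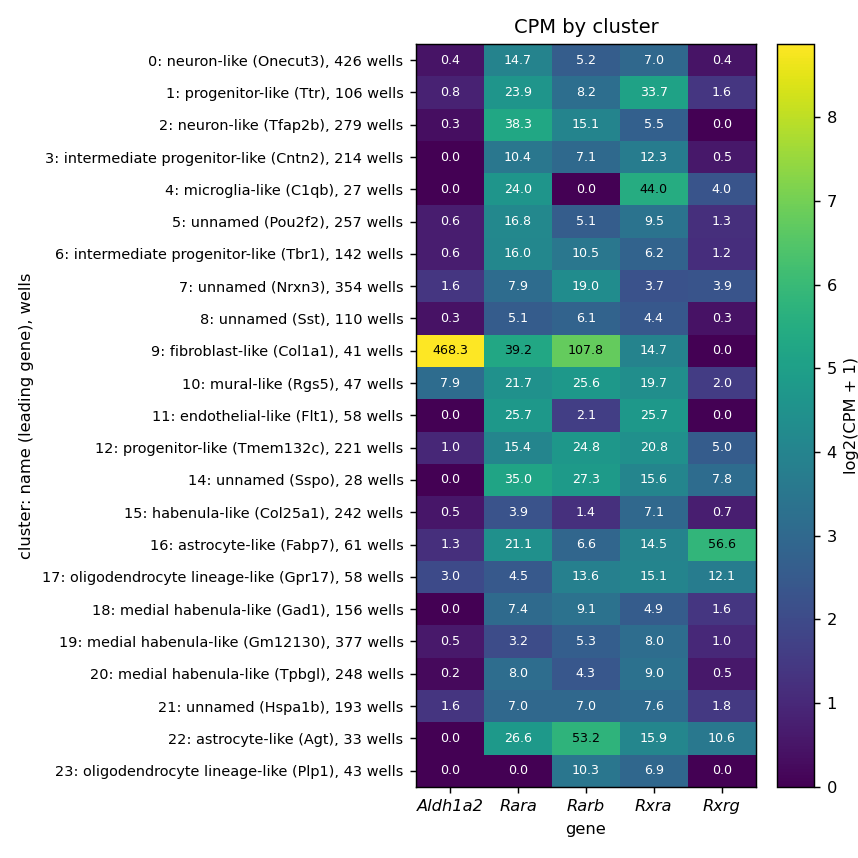
CPM of Aldh1a2 and the 4 receptors (columns) in clusters of the developmental series (rows, with name, leading gene and number of wells); numbers are CPM over all plates and colours log2(CPM + 1). Aldh1a2 stands at 468 CPM in fibroblast-like cells and Rxrg at 56.6 CPM in astrocyte-like cluster 16, while Rara and Rxra are spread over many clusters.

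Whether the genes differed between late embryonic and early postnatal habenula, a contrast that leaves out E11, was tested on plate sums with edgeR's quasi-likelihood test and Benjamini-Hochberg adjustment over all 17453 genes tested. The mean of E13, E15 and E18 (6 plates) was set against that of P4 and P7 (4 plates). Of the 6 genes other than Crabp1, Crabp2, Rarb and Rara were lower after birth and none was higher. The background was large: 44.0% of genes passed, 21.3% lower and 22.8% higher, so 3 of 6 is near the share of all genes called. That share depends on the filter on low counts: without it 21.8% of 37590 genes passed. The median log2 change was -0.82 over these 6 genes and -0.02 over all genes tested.

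Crabp2 went from 66.1 ± 103.02 CPM (SD, n = 6) to 1.51 ± 0.597 CPM (SD, n = 4), with no overlap between plates. Its fitted log2 change was -4.12 ± 0.60 (SE, edgeR adjusted p = 0.00029). Stage means of Crabp2 were 170 CPM at E13, 19.95 at E15, 7.91 at E18 and 1.80 at P4, so the embryonic mean includes a fall before birth. The SDs given here span stages, while the fit takes its spread within stages. Rarb went from 19.5 ± 15.2 to 5.56 ± 1.30 CPM, also with no overlap, with a log2 change of -1.44 ± 0.29 (edgeR adjusted p = 0.00243). Rara went from 15.0 ± 7.14 to 5.51 ± 2.70 CPM, where E15 plate 2 lay within the range of the P4 and P7 plates, with a log2 change of -1.21 ± 0.30 (edgeR adjusted p = 0.00692). These 3 calls held under every alternative run, among them the omission of each plate (highest edgeR adjusted p 0.00278 for Crabp2, 0.0189 for Rarb and 0.044 for Rara). In wells with a Pou4f1 UMI alone the log2 changes were -4.02, -1.48 and -1.15 (edgeR adjusted p = 0.00202, 0.000486 and 0.00824), of similar size to those over all kept wells. A Pou4f1 UMI does not set habenula cells fully apart. Of the microglia-, fibroblast-, mural- and endothelial-like wells, 8 of 26 held one on E13 plate 2, 1 of 19 on E18 plate 1 and 1 of 18 on P7 plate 1. Crabp1, given as a description, stood at 7.44 ± 5.76 and 3.77 ± 2.52 CPM, with overlapping plates. Rxra (-0.37 ± 0.43, edgeR adjusted p = 0.511) and Rxrg (-0.43 ± 0.73, adjusted p = 0.666) did not pass. For Aldh1a2 the fitted log2 change was 1.70 ± 1.28 (edgeR adjusted p = 0.307) while the mean CPM was lower after birth, 10.0 against 3.91. The fit averages stages on a log scale, and 3 of the 6 embryonic plates had 0 UMIs.

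**Figure D5:**
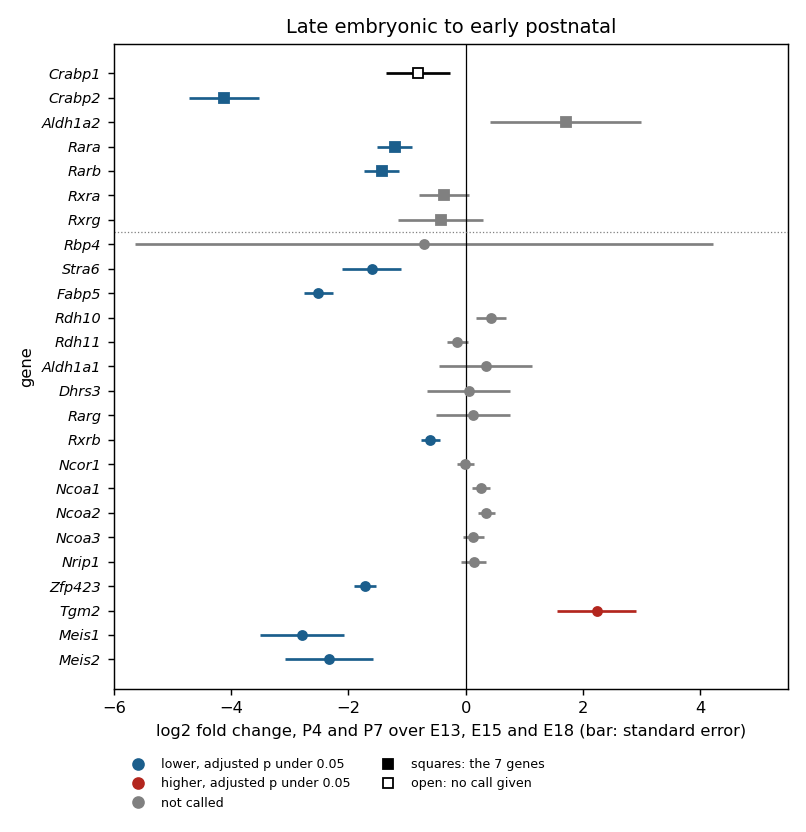
Fitted log2 fold change of P4 and P7 over E13, E15 and E18 (horizontal, with standard errors) for the 7 genes (squares; Crabp1 open, with no call) and 18 of the other retinoic acid genes tested (circles); blue is lower, red higher, grey not called at an edgeR adjusted p of 0.05. Crabp2 at -4.12 and Fabp5 at -2.51 are called lower, and Tgm2 at 2.23 higher.

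Of 27 other retinoic acid genes listed by role, 20 were tested in this contrast, of which 7 were lower and 2 higher, against the 44.0% of all genes called, and their median log2 change was 0.02. Among carriers and uptake genes, Fabp5 and Stra6 were lower. Fabp5, a fatty acid binding protein that can also carry retinoic acid, went from 168 ± 20.9 to 26.1 ± 2.08 CPM (log2 change -2.51 ± 0.24, edgeR adjusted p = 2.31e-05). Stra6, the receptor for the circulating retinol carrier, was lower with a log2 change of -1.60 ± 0.50 (edgeR adjusted p = 0.0237), but failed without any 1 of 5 plates, with a highest adjusted p of 0.105. Its log2 change was -2.21 without P4 plate 1 and -2.55 in wells with a Pou4f1 UMI. None of 3 synthesis genes tested passed, Rdh11 among them (-0.14, edgeR adjusted p = 0.558), nor did Dhrs3, which reduces retinal. Breakdown enzymes were close to the limit of detection in the contrast, with Cyp26a1 at 2.00 CPM or less and Cyp26b1 at 2.29 CPM or less on its plates.

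Of the other receptors, Rxrb was lower, from 38.8 ± 4.41 to 22.7 ± 2.05 CPM (-0.60 ± 0.16, edgeR adjusted p = 0.00991). It failed without P7 plate 1, P7 plate 2 or P4 plate 2 (highest adjusted p = 0.0587) and without the filter on low counts (0.11). Rarg was not called. Among coregulators, Zfp423, a zinc finger protein reported to be needed for retinoic acid responses, was lower, from 99.4 ± 26.8 to 26.5 ± 3.15 CPM (-1.72 ± 0.19, edgeR adjusted p = 5.42e-05). The corepressor gene Ncor1 (-0.01, edgeR adjusted p = 0.98) and the coactivator genes Ncoa1, Ncoa2 and Ncoa3 (0.26, 0.35 and 0.13) and Nrip1 (0.13) were not called. Of known responders, Meis1 and Meis2 were lower (-2.80 ± 0.72 and -2.34 ± 0.75, edgeR adjusted p = 0.00862 and 0.0258) and Tgm2 was higher (2.23 ± 0.67, adjusted p = 0.0194). Of the E18 plates the first held 44.3 CPM of Meis1 and the other 0, and without E18 plate 1 its change was 0.27 (edgeR adjusted p = 0.824). Meis2 failed without any 1 of 6 plates (highest adjusted p 0.132) and Tgm2 without P7 plate 2 or P4 plate 2 (0.0543 and 0.0556). The log2 change of Meis2 was -4.59 without P7 plate 2 and -1.60 without E18 plate 1, and that of Tgm2 was 3.50 without E15 plate 2 and 2.85 without E13 plate 2. In wells with a Pou4f1 UMI the changes were -3.89 for Meis1, -3.35 for Meis2 and 2.97 for Tgm2.

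From P4 to P7 none of the 6 genes and none of the 20 others passed, where 1 of 17453 genes did by edgeR (0.00573%), the neuropeptide gene Cck, named after its values were seen. Rara was the 1 gene of the 6 at an unadjusted p under 0.05 (log2 change 1.18 ± 0.45, edgeR adjusted p = 1), beside 475 of all 17453 genes. DESeq2 called none of the 6. The P7 plates of Rara (8.12 and 7.21 CPM) lay above the P4 plates (4.58 and 2.15 CPM).

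From P7 to the adult 3.58% of genes passed by edgeR, 1.82% lower and 1.76% higher, and none of the 6 or of the 20 others did. Crabp2 came nearest, from 1.03 and 1.41 CPM to 5.27 and 9.74 CPM (log2 change 2.69 ± 0.94, edgeR adjusted p = 0.137). The plate values did not overlap, but their counting intervals did. Adult plate 1 held 4 UMIs in 3 of 56 wells, with an interval of 1.44 to 13.5 CPM. The P7 plates held 8 UMIs each, with intervals that reached 2.03 and 2.77 CPM. Crabp2 was the 1 gene of the 6 at an unadjusted edgeR p under 0.05, beside 3607 of all 17453 genes tested. It passed in DESeq2 (adjusted p = 0.0287) and in edgeR without the filter on low counts (adjusted p = 4.93e-07). On adult plate 2, 37 of 342 wells held Crabp2, and 47 of its 49 UMIs lay in the 170 wells of cluster 21, an unnamed cluster led by the heat-shock genes Hspa1b and Hspa1a that also held Tac2 and Gpr151 among its leading genes. Cluster 21 held 11.2 CPM of Crabp2 over the series, beside 9.74 CPM on adult plate 2. Its wells were deep, with a median of 22086 counts against 11303 on that plate. The 51 microglia-, fibroblast-, mural- and endothelial-like wells of adult plate 2 held 0 UMIs. In them 3 counts would be 14.1 CPM, above the level of the plate, so these wells cannot show a lower level. Astrocyte and oligodendrocyte markers were also higher on the adult plates (697 to 1212 CPM for astrocyte markers against 97.5 to 134 at P7); their part in the plate levels was not tested.

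The C57BL/6 set allowed left and right habenula to be compared at E18. None of 15489 genes passed by edgeR (0% called, with 182 at an unadjusted p under 0.05, and 1 gene, the globin pseudogene Hba-ps4, by DESeq2). Of the 7 genes, 5 passed the filter on low counts and none of these was under an unadjusted p of 0.05. Fitted log2 changes from left to right were 1.18 ± 0.87 for Crabp1, 0.35 ± 0.46 for Rara, -0.20 ± 0.34 for Rarb, 0.35 ± 0.60 for Rxra and -0.94 ± 0.59 for Rxrg. With these standard errors, differences of the size fitted for Crabp1 were not detectable with 2 plates a side. Crabp1 stood at 3.55 and 0 CPM on the left (3 counts would be 1.62 CPM on left plate 2) and 6.70 and 3.46 CPM on the right. Of its UMIs in this set, habenula-like cluster 11, led by Npr1, Amigo2 and Gpr151, held 44.9%, at 26.8 CPM (95% interval 18.7 to 37.3). Crabp2 and Aldh1a2 did not pass the filter and stood at 2.70 CPM or less on the 4 plates. The higher erythroid marker level on the left plates, given above, stands beside this comparison; its part was not tested.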

How the data were processed

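The authors deposited tables of total, spliced and unspliced transcripts per gene and well. Their values are expected counts, that is UMI numbers corrected for collisions among 4096 possible UMIs: inverting that correction gave whole numbers for 100% of the deposited values, against 46.1% as deposited in the total table of the series. STAR 2.5.3a and the build mm10 are named in the submitters' processing notes; the sources used here do not give the counting program, annotation or strand setting. Total and unspliced tables were used. The 7 genes and all gene and marker lists were chosen with earlier results of these data known.

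Spike-ins (92 rows) were left out of all totals. Levels are CPM of all kept wells of a plate. Intervals are exact Poisson or Clopper-Pearson at 95% and, like the limit of 3 counts, cover counting error only. A test on whole counts was planned; the expected counts were summed per plate and rounded to whole numbers for edgeR 4.0.16 (filterByExpr, TMM, glmQLFit, glmQLFTest; limma 3.58.1, R 4.3.3), with all 14 series plates outside E12 in 1 fit and the left and right plates in another. DESeq2 1.42.0 was an alternative. In simulated data with the mean levels and totals of these plates, edgeR recovered 93% of genes changed by 2 on the log2 scale from P7 to adult (16321 genes) and 97% to 100% in the other comparisons. The simulation gave every gene the same fixed spread, not one estimated from these plates, and changed no gene of the lowest levels. It checks the procedure and does not give the power for the genes described here.

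Wells were clustered per set without the 7 genes with scanpy 1.11.5 and leidenalg 0.10.2 (Python 3.11.15, 2000 variable genes, 30 components, 15 neighbours, resolution 1). Naming a cluster took 3 or more markers of 1 class at 2-fold or more over all other wells and in at least 20% of its wells. A name was withheld on a tie, when another class had more of the 10 leading genes, or at low depth with no marker among them. Unnamed clusters can thus have passed 3 markers: series cluster 21 passed 7 and the Apoe-led cluster of the E18 set 8. No doublet caller was run. GENCODE coordinates (GRCm38) matched all 7 gene IDs. Named genes are the 7, those of the 27 listed genes that passed and the 6 highest others; some of these results are not reported here, though the counts over the list include every gene tested. Alternatives were no filter on low counts, a replicate block, wells with at least 2000 counts, wells with a Pou4f1 UMI, leaving out each plate, thinning, and the mean over wells.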

Additional observations from a re-analysis of the deposited data

Results flagged for a closer look

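Wells left out of all levels held more than 3 UMIs of Crabp1 on 6 of the 20 plates and 0 UMIs on 11. At E11 the level was 5923 CPM in the 75 wells left out on plate 1 (36 UMIs of 6080 counts, where 3 counts would be 493 CPM) and 5759 CPM in the 38 left out on plate 2 (52 UMIs, 332 CPM), beside 4509 and 3118 CPM in kept wells. The 93 wells left out at E12 held 871 CPM (42 UMIs, 62.2 CPM), beside 306 CPM in kept wells. On 3 later plates the level passed 3 counts, which at this depth lies above the level in kept wells. The wells left out on E13 plate 1 held 115 CPM (6 UMIs, 57.6 CPM) beside 11.9 CPM, those of E15 plate 1 485 CPM (20 UMIs, 72.8 CPM) beside 16.8 CPM, and those of E18 plate 2 451 CPM (7 UMIs, 193 CPM) beside 3.01 CPM.

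Other genes passed 3 UMIs in left-out wells on fewer plates. Crabp2 held 415 CPM at E12 (20 UMIs) and 269 CPM on E13 plate 1 (14 UMIs), beside 332 and 270 CPM in kept wells. Rarb held 121 CPM on E15 plate 1 (5 UMIs) beside 9.77 CPM. On adult plate 1 Aldh1a2 held 92.7 CPM (7 UMIs) and Rara 53.0 CPM (4 UMIs), beside 5.27 and 7.91 CPM. These values come from wells that no comparison used.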

How the results depend on the processing

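The 3 calls made among the 7 genes, for Crabp2, Rarb and Rara from late embryonic to early postnatal, held in every setting. The following counts pool the 7 genes in all comparisons with the other named genes in the first. Fold changes kept their direction and side of the threshold in 671 settings, became not called in 19, became called in 6 and changed direction in 32. A gene not called in the main run counts as kept where it stays not called, so these counts are no measure of how stable the calls were. Levels moved by less than 1 SD or counting interval in 257 settings and by more in 23, over wells with at least 2000 counts, the mean over wells and the omission of a plate. With 2 plates in a group, leaving 1 out moves the mean by less than 1 SD whatever the values. The settings that omit a plate could therefore only count as unmoved. Thinning moved the share of positive wells beyond its interval in 120 cases and not in 20. The number of genes called from P4 to P7 was 1, against 22 by DESeq2 and 136 without the filter, and 0 to 1 when leaving out single plates. From P7 to adult it was 625, against 1411 by DESeq2, 1766 without the filter, and 27 to 1572 when leaving out single plates (27 and 28 without P7 plates 1 and 2, 60 without adult plate 1). From left to right it was 0, against 1 by DESeq2, 37 without the filter, 6 with a replicate block, and 18 to 39 without single plates. The 6 were Alas2, Hbb-bs, Hbb-bt, Hba-a1, Hba-a2 and Hba-ps4, none of them a retinoic acid gene. Replicate numbers did not pair the series plates: over 21 pairs of stages the deviations of same-numbered plates correlated at -0.363 to 0.250, with 4 over 0.1 (0.233 for the pair of sides), and the replicate block gave 7338, 1 and 493 genes in the 3 series comparisons and changed no call of the 7 genes. In wells with a Pou4f1 UMI the log2 change turned for Aldh1a2 and Rxra from late embryonic to early postnatal (-0.45 and 0.052), for Aldh1a2 and Rxrg from P4 to P7 (-1.04 and 0.46) and for Aldh1a2 and Rara from P7 to adult (3.43 and -0.093), none of them called. Without the filter Ncor1 turned to 0.090. Leaving out single plates gave ranges that cross 0 from late embryonic to early postnatal for Rxra (-0.55 to 0.14), Rxrg (-0.72 to 1.66), Meis1 (-3.15 to 0.27), Ncor1 (-0.12 to 0.12) and Rdh11 (-0.28 to 0.024). From P4 to P7 they did for Crabp1 (-0.010 to 1.71) and Rxrg (-0.56 to 0.53). From P7 to adult they did for Crabp1 (-1.27 to 0.16), Aldh1a2 (-1.72 to 0.21), Rara (-0.038 to 0.18), Rxra (-0.71 to 0.19) and Rxrg (-5.79 to 1.19), and from left to right for Rarb (-0.61 to 0.14) and Rxra (-0.23 to 0.97). The cause was not tested. Low depth limits all of these genes outside the early stages of Crabp1 and Crabp2: Aldh1a2 held 0 to 76 UMIs per plate and each receptor 0 to 154. The changes of Crabp1 between stages are given here as values with no call.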

Other observations

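The genes whose log2(CPM + 1) course over the 15 series plates was most like that of Crabp1, among 10702 genes with a mean of at least 20 CPM at 1 stage, were Lin28a (Pearson r = 0.96), Sall4 (0.95), Gm12082 (0.95), Tm7sf2 (0.94) and Robo2 (0.94). Lin28a, an RNA-binding protein gene of early development, stood at 107 CPM at E11, 8.42 at E12 and 2.84 at E13, and Robo2, a receptor for Slit guidance cues, at 1151, 600.2 and 135 CPM. For Crabp2 they were Lrrn1, Ebf2 and Lss (0.96 each), of which Ebf2, a transcription factor gene, went from 497 CPM at E11 to 217, 101.0 and 30.4 CPM at E12, E13 and E15. Aldh1a2 was closest to Serpinf1, Bmp6 and Sidt1 (0.92 each). Rara was closest to Decr1 (0.91), Ddt (0.90) and 1810058I24Rik (0.88), and Rarb to Sdccag3 (0.89), Nup214 (0.89) and Cd63-ps (0.86). These correlations are a description with no test, over plates that share libraries, depth and cell makeup.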
